A study of Homo sapiens with 2 samples.

Results

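The transcripts described here are the nuclear long non-coding RNAs MALAT1, NEAT1 and HOTAIRM1 and the snoRNA host transcripts GAS5, SNHG1, SNHG5, SNHG6, SNHG7, SNHG8 and SNHG10, chosen by name, 10 genes in all. Of these, 6 had a row among the 32742 genes of the table: MALAT1, NEAT1, HOTAIRM1, SNHG7, SNHG8 and SNHG10. GAS5, SNHG1, SNHG5 and SNHG6 are not analysed here. All 4 are of the type processed_transcript in GENCODE 29, whereas MALAT1, NEAT1 and SNHG8 are lincRNA and HOTAIRM1, SNHG7 and SNHG10 are antisense. The cells were WaGa, an established Merkel cell carcinoma line that grows in suspension, kept in RPMI medium. Domatinostat blocks class I histone deacetylases, which take acetyl groups off histones and other proteins. One library came from cells given no treatment and 1 from cells given domatinostat dissolved in DMSO. The labels do not say that the control received DMSO, and the dose and the time of treatment are not given in the sources used here. RNA was counted as unique molecular identifiers (UMIs) with the 10x Genomics 3′ Chromium v2 chemistry, which primes on stretches of A with oligo-dT.

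MALAT1 is an abundant unspliced transcript held in nuclear speckles, bodies rich in splicing factors. NEAT1 is the RNA scaffold of paraspeckles, nuclear bodies built on its long isoform and on proteins such as NONO and SFPQ, and a short polyadenylated isoform shares its 5′ end. HOTAIRM1 is transcribed from within the HOXA cluster, antisense to the HOXA genes. SnoRNA host genes are spliced transcripts whose introns carry small nucleolar or Cajal body RNAs. The spliced exons of many hosts are removed by nonsense-mediated decay, and many host promoters start within a run of pyrimidines.

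A 3′ oligo-dT assay reads a transcript where it has a poly(A) tail or an internal run of A, so the sequences at those places are shown first. In GENCODE 29 (GRCh38), MALAT1 lies at chr11:65497688-65506516 and NEAT1 at chr11:65422774-65445540, both on the plus strand. The longest run of A in the exon of MALAT1-202 (8708 bases) and in that of the long isoform NEAT1-202 (22743 bases) is in capitals, with 20 bases on each side.
MALAT1-202, chr11:65506078-65506130: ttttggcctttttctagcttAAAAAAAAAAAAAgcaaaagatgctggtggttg
NEAT1-202, chr11:65440823-65440884: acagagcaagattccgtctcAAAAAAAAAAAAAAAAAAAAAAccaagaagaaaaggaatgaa
The MALAT1 run has 13 bases and ends 359 bases before the transcript's end. The NEAT1 run has 22 bases and ends 4676 bases before it. NEAT1-202 holds 6 runs of at least 8 A and MALAT1-202 holds 2. Of 55771 long non-coding transcripts, 2.73% hold a run of at least 13 A and 0.407% a run of at least 22, with no account taken of length. The counts per gene do not tell which of these places gave a UMI, nor which NEAT1 isoform was read.

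A short NEAT1 isoform, NEAT1-208, and 1 isoform each of HOTAIRM1, SNHG7, SNHG8 and SNHG10 end in a poly(A) signal hexamer, AATAAA or ATTAAA. The hexamer is shown in capitals within the last 40 bases of the exon. The isoforms were picked because they hold one.
NEAT1-208, chr11:65426474-65426513, plus strand: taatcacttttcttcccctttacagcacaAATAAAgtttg
HOTAIRM1-203, chr7:27099927-27099966, plus strand: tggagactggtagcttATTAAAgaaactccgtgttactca
SNHG7-202, chr9:136724658-136724697, minus strand: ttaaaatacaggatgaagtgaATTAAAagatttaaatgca
SNHG8-201, chr4:118279784-118279823, plus strand: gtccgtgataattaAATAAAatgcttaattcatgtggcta
SNHG10-202, chr14:95532914-95532953, minus strand: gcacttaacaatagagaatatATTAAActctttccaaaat
Among the 55771 long non-coding transcripts, 28.8% hold either hexamer in the last 40 bases, searched on the transcript's own strand. NEAT1-202 and the other short NEAT1 isoforms hold neither there, and MALAT1-202 holds one.

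The 3 snoRNA hosts are shown around the RefSeq start (GRCh38.p14), 30 bases before it and 30 after, with the longest run of C or T on the gene's strand in capitals. They are printed together because all 3 had a ratio between libraries above 1.
SNHG7, chr9:136728155-136728214, minus strand: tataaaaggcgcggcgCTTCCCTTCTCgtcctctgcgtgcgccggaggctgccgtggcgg
SNHG8, chr4:118278732-118278791, plus strand: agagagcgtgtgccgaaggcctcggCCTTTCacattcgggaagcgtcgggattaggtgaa
SNHG10, chr14:95534843-95534902, minus strand: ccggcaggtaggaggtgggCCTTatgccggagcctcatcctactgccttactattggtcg
The run has 11 bases in SNHG7, 6 in SNHG8 and 4 in SNHG10. SNHG10 holds further runs of 4, and the first is marked. The SNHG7 run begins 14 bases before the RefSeq start and the SNHG10 run 11 bases before it, and both end before the start. The SNHG8 run begins 5 bases before the start and spans it. Of 35116 promoters, 8.36% hold a run at least as long as that of SNHG7 in the same window, 49.6% one as long as that of SNHG8 and 88.4% one as long as that of SNHG10. Of the 10 named members, 7 have an entry among these promoters.

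The untreated-labelled library held 4137 cells with a median of 11125 UMIs, and the treated-labelled library held 6679 cells with a median of 8578. In all, 48 barcodes occurred in both. Cells were tied to a library only by the treatment word in the cell name. CDKN1A, a gene outside the lists used here that such inhibitors are known to induce, was lower in the treated-labelled library. Lower levels there were common, since 12.2% of genes with at least 100 UMIs lay at least 1.5-fold lower. A single gene does not settle how the labels were given, so directions below follow the labels as given. Merkel neuroendocrine markers were present (8 of 9 with at least 50 UMIs over both libraries), with a summed level of 1819 and 2207 counts per 1000000 UMIs (CPM). The 4 T cell markers with a row summed to under 1 CPM in each library, and the B cell, myeloid, endothelial and erythroid sets to between 0.465 and 9.88 CPM. Fibroblast markers summed to 29.3 and 18.0 CPM and keratinocyte markers to 403.4 and 358.8 CPM. Of the fibroblast sum, DCN made 25.2 and 16.7 CPM. Of the keratinocyte sum, KRT10 made 310.6 and 313.2 CPM and SFN 88.3 and 42.9 CPM. The keratinocyte markers KRT5, KRT14 and KRT1 had 4.32 and 2.78, 0.110 and 0.0166, and 0.0658 and 0 CPM. Among the markers at 0 in both were CD3D, CD2, MS4A1, FCGR3A, CDH5 and HBB. Each group had 1 library, so nothing could be tested between conditions, and every interval below is a 95% interval for counting error only.

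The first comparison asked how the level of each member differed between untreated and treated cells. NEAT1 was the only one of the 6 measured members past 1.5-fold in either direction, and it was lower in the treated-labelled library. Among the 12812 genes that reached 100 UMIs, 12.2% lay at least 1.5-fold lower there, 3.17% lay higher by that much, and 15.4% lay past 1.5-fold either way. MALAT1 was slightly lower, HOTAIRM1 was level within its interval, and SNHG7, SNHG8 and SNHG10 were somewhat higher. Together the 6 members took 2.93% of all UMIs in the untreated-labelled library and 2.59% in the treated-labelled library.

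MALAT1, the speckle transcript, had 27943 CPM in the untreated-labelled library and 24961 CPM in the treated-labelled library. It had the most UMIs of all genes in both. The ratio of treated to untreated was 0.893 (0.891 to 0.895). Of the 1545 genes at 100 CPM or more on average, 295 had a ratio as low or lower, so a difference of this size was common among well-measured genes.

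NEAT1, the paraspeckle scaffold, had 1159 CPM in the untreated-labelled library and 700.6 CPM in the treated-labelled library. The ratio was 0.604 (0.597 to 0.612), and by UMIs NEAT1 moved from place 140 to place 218 among all genes. Of the 1545 genes at 100 CPM or more, 2.07% lay at least 1.5-fold lower and 1.17% higher by that much, and 20, NEAT1 included, had a ratio as low as that of NEAT1. Low ratios were more frequent among weakly expressed genes, so that 9.33% of the 12812 genes lay below NEAT1.

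HOTAIRM1, the antisense transcript of the HOXA cluster, had 15.5 CPM (706 UMIs) and 15.1 CPM (906 UMIs). Its ratio was 0.972 (0.880 to 1.07), a difference within counting error. The snoRNA hosts were each higher in the treated-labelled library as a whole. SNHG7 had 63.5 and 74.8 CPM, with a ratio of 1.18 (1.12 to 1.23). SNHG8 had 99.6 and 117.3 CPM, with a ratio of 1.18 (1.13 to 1.22). SNHG10 had 43.4 and 54.2 CPM, with a ratio of 1.25 (1.18 to 1.32). All 3 intervals lay above 1. An interval that leaves out 1 was common, since 64.7% of the 12812 genes had one, above or below.

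SNHG7 overlaps FAM69B and SNHG10 overlaps GLRX5, each on the opposite strand in GENCODE 29, and how strand entered the authors' counting is not given in the sources used here. FAM69B had a ratio of 0.991 (0.905 to 1.09) and GLRX5 one of 1.01 (0.990 to 1.02), so neither overlapping gene was higher with its partner. HOXA2, within 5000 bases of HOTAIRM1, had a ratio of 0.703 (0.533 to 0.927) on 112 and 104 UMIs. No other gene with at least 100 UMIs lay within 5000 bases of MALAT1, NEAT1 or SNHG8.

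The level in single cells was then described. MALAT1 was found in all but 2 of the 4137 cells labelled untreated and in all 6679 labelled treated. Its median was 275.2 UMIs per 10000 UMIs of the cell in the untreated-labelled library (5th to 95th percentile 82.0 to 454.7) and 237.6 in the treated-labelled library (88.2 to 418.0). The distributions overlapped over most of their range. NEAT1 had a median of 10.1 per 10000 (0.676 to 28.3) and of 5.69 (0 to 17.7). Most cells of both libraries held NEAT1, and its values spread over a wider range in the untreated-labelled library, where its mean was higher. Relative to the mean the spread was larger in the treated-labelled library, with a standard deviation over mean of 0.833 against 0.756. The part of counting error in this was not tested.

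**Figure D1:**
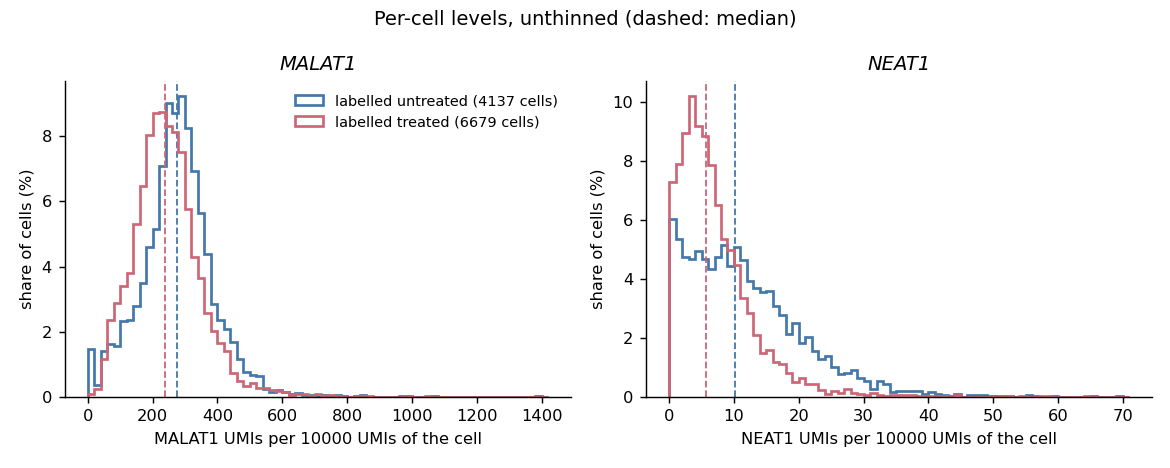
Distribution of MALAT1 (left) and NEAT1 (right) over cells, in UMIs per 10000 UMIs of the cell on the x axis and the share of cells in percent on the y axis, by library, with dashed lines at the medians. The NEAT1 median is 10.1 in the untreated-labelled library and 5.69 in the treated-labelled library, and a small group of cells near 0 is seen for MALAT1 in the untreated-labelled library.

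In the untreated-labelled library a small group of cells with little MALAT1 stood below the main distribution. Under 40 MALAT1 UMIs per 10000, a limit chosen after the distribution was seen, lay 76 cells labelled untreated (1.84%, 1.45 to 2.29) and 21 labelled treated (0.314%, 0.195 to 0.480). The 1st percentile in the treated-labelled library was 55.2 per 10000, so its 21 cells lay in the lower tail. By the choice of these cells MALAT1 was low in them, at 1338 and 2831 CPM, against 28192 and 24992 CPM in the other cells. No interval was computed for the levels in these few cells. NEAT1 was low in the same cells, at 121.0 CPM against 1169 in the untreated-labelled library and 361.5 against 701.1 in the treated-labelled library. SNHG8 was not low there, at 163.7 CPM against 99.04 in the untreated-labelled library. These cells were shallow, with medians of 4875 and 3468 UMIs, while their mitochondrially encoded share had medians of 4.21% and 5.28% against 4.98% and 4.58% in the others. The part of depth in this pattern was not tested.

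The share of cells with at least 1 UMI was compared after each cell was thinned to 4351 UMIs, which left out 245 cells labelled untreated and 667 labelled treated. NEAT1 was found in 90.5% of thinned cells labelled untreated and 87.0% labelled treated, and in 95.8% and 94.1% before thinning. The difference was -3.50 percentage points at this depth and -0.852 when cells were thinned to 8578 UMIs, where nearly all cells held NEAT1. SNHG8 was found in 34.8% and 39.9% of thinned cells. SNHG7 was found in 23.8% and 28.2%, and SNHG10 in 17.2% and 21.0%. Before thinning the 3 host shares were level or the other way round, with SNHG8 at 62.9% and 61.4%, SNHG7 at 46.5% and 46.2%, and SNHG10 at 36.5% and 36.0%. The untreated-labelled library was the deeper one, and no direction is read from the unthinned shares of the hosts. HOTAIRM1 was found in 6.99% and 6.45% of thinned cells and in 14.4% and 12.1% before thinning, and its thinned level of under 0.1 UMI per cell allows no reading of a difference. With 1 cell line, no cell type that should lack these transcripts was at hand to gauge free RNA.

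The second comparison set cells of different total UMI counts side by side within each library, since depth differed between the libraries. NEAT1 was lower in the treated-labelled library at every depth. In cells of 8000 to 12000 UMIs it had 1327 and 721.2 CPM, a ratio of 0.544 (0.532 to 0.555). The ratio was 0.781 (0.734 to 0.831) in cells under 5000 UMIs and 0.789 (0.761 to 0.818) in cells of at least 16000, so that in these outer depth ranges NEAT1 did not pass 1.5-fold. In the untreated-labelled library NEAT1 stood highest at 8000 to 12000 UMIs and lowest, at 923.0 CPM, in the deepest cells. In the treated-labelled library it stayed between 649.3 and 792.5 CPM.

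MALAT1 had 24838 CPM in the shallowest cells labelled untreated and 28265 CPM in the deepest. In the treated-labelled library the shallowest and deepest cells had 23996 and 24242 CPM, with the lowest level, 21645 CPM, at 5000 to 8000 UMIs. Its ratio between libraries ran from 0.858 at 16000 UMIs or more to 0.966 under 5000. HOTAIRM1 was higher in shallow cells, with 27.9 CPM under 5000 UMIs against 15.03 at 16000 or more in the untreated-labelled library (ratio 1.86, 1.29 to 2.63), and 19.7 against 13.2 in the treated-labelled library (1.49, 1.07 to 2.06). SNHG8 and SNHG10 showed the same order in the untreated-labelled library, with shallow over deep ratios of 1.39 (1.18 to 1.64) and 1.45 (1.14 to 1.84). In the treated-labelled library these ratios were 1.03 (0.914 to 1.16) and 1.07 (0.894 to 1.28), and the difference between libraries was not tested. SNHG7 was level over depth in both libraries, with shallow over deep ratios of 1.03 (0.830 to 1.28) and 1.10 (0.950 to 1.27). Between libraries, SNHG8 and SNHG10 showed no difference beyond counting error in cells under 5000 UMIs, with ratios of 1.00 (0.843 to 1.20) and 0.966 (0.748 to 1.26). In the 4 deeper ranges SNHG8 lay between 1.09 and 1.36 and SNHG10 between 1.13 and 1.31, and SNHG7 lay between 1.11 and 1.24 in all 5. The SNHG7 interval included 1 under 5000 UMIs (0.988 to 1.57) and at 5000 to 8000 (0.974 to 1.26). That of SNHG8 included 1 at 5000 to 8000 (0.991 to 1.20).

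**Figure D2:**
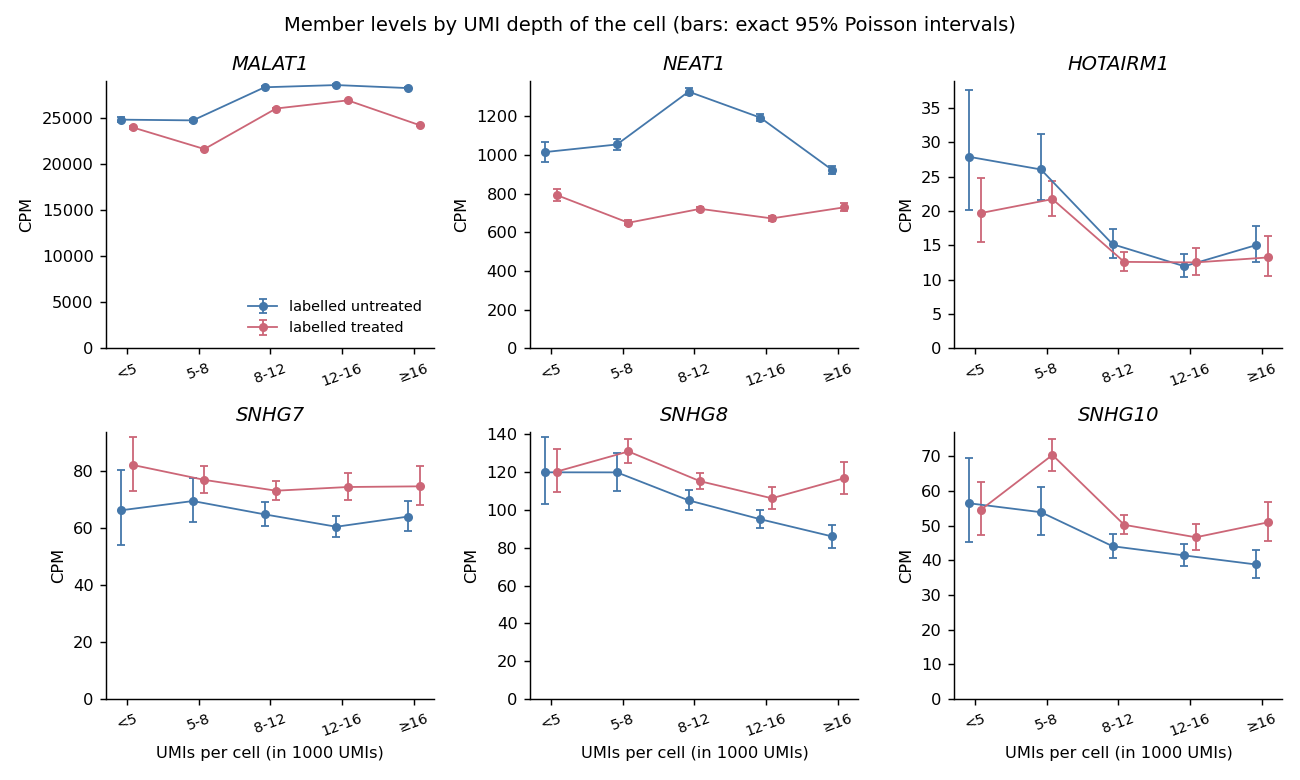
Level of each member in CPM (y axis, from 0) by UMIs per cell in 5 unequal ranges, labelled in units of 1000 UMIs (x axis), by library, with exact 95% Poisson intervals as bars. NEAT1 lies lower in the treated-labelled library in all 5 depth ranges, and the gap is narrower in the shallowest and deepest cells.

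The third comparison set the called cell cycle phases side by side. Of the thinned cells labelled untreated, 405 were called G1, 2149 S and 1338 G2/M. Of those labelled treated, 357 were called G1, 2831 S and 2824 G2/M. The members did not share 1 pattern. MALAT1 was highest in G2/M, NEAT1 in S, and HOTAIRM1, SNHG8 and SNHG10 in G1, in both libraries. No member was used to call the phases.

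NEAT1 had 1295 CPM in G1, 1538 CPM in S and 632.0 CPM in G2/M in the untreated-labelled library. In the treated-labelled library it had 678.9, 864.1 and 555.1 CPM. The S over G2/M ratio was 2.43 (2.38 to 2.49) in the first and 1.56 (1.53 to 1.59) in the second. Between libraries, NEAT1 was at 0.524 (0.496 to 0.554) in G1, 0.562 (0.553 to 0.571) in S and 0.878 (0.857 to 0.900) in G2/M, so the low ratio was seen in G1 and S cells, and the G2/M ratio did not pass 1.5-fold.

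MALAT1 was higher from G1 over S to G2/M, with 22532, 27499 and 29765 CPM in the untreated-labelled library and 17092, 22652 and 27786 CPM in the treated-labelled library. The ratio between libraries was 0.759 (0.750 to 0.767) in G1, 0.824 (0.821 to 0.827) in S and 0.934 (0.930 to 0.937) in G2/M. HOTAIRM1 stood at 39.5 CPM in G1 against 12.5 in S and 14.2 in G2/M in the untreated-labelled library. In the treated-labelled library it had 33.1, 13.6 and 14.4 CPM. Its G1 over S ratio was 3.16 (2.57 to 3.87) and 2.44 (1.90 to 3.10), the widest phase difference of the 6 members in each library. Cells called G1 were shallower, with a median of 8378 UMIs against 10998 in S in the untreated-labelled library and 6924 against 8473 in the treated-labelled library. The part of depth in the G1 levels was not tested.

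SNHG8 had 132.6, 102.8 and 87.8 CPM in G1, S and G2/M in the untreated-labelled library, and 162.2, 125.5 and 106.1 CPM in the treated-labelled library. Its G1 over G2/M ratio was 1.51 (1.36 to 1.67) and 1.53 (1.38 to 1.69). SNHG10 had a G1 over G2/M ratio of 1.53 (1.31 to 1.80) and 1.54 (1.32 to 1.77), with 57.7 CPM in G1 cells labelled untreated and 82.3 CPM in G1 cells labelled treated. SNHG7 varied least, with an S over G2/M ratio of 0.846 (0.782 to 0.914) and 0.830 (0.780 to 0.884). Between libraries the 3 hosts were higher in the treated-labelled library in every phase, from 1.14 (0.939 to 1.37) for SNHG7 in G1 to 1.43 (1.17 to 1.73) for SNHG10 in G1.

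**Figure D3:**
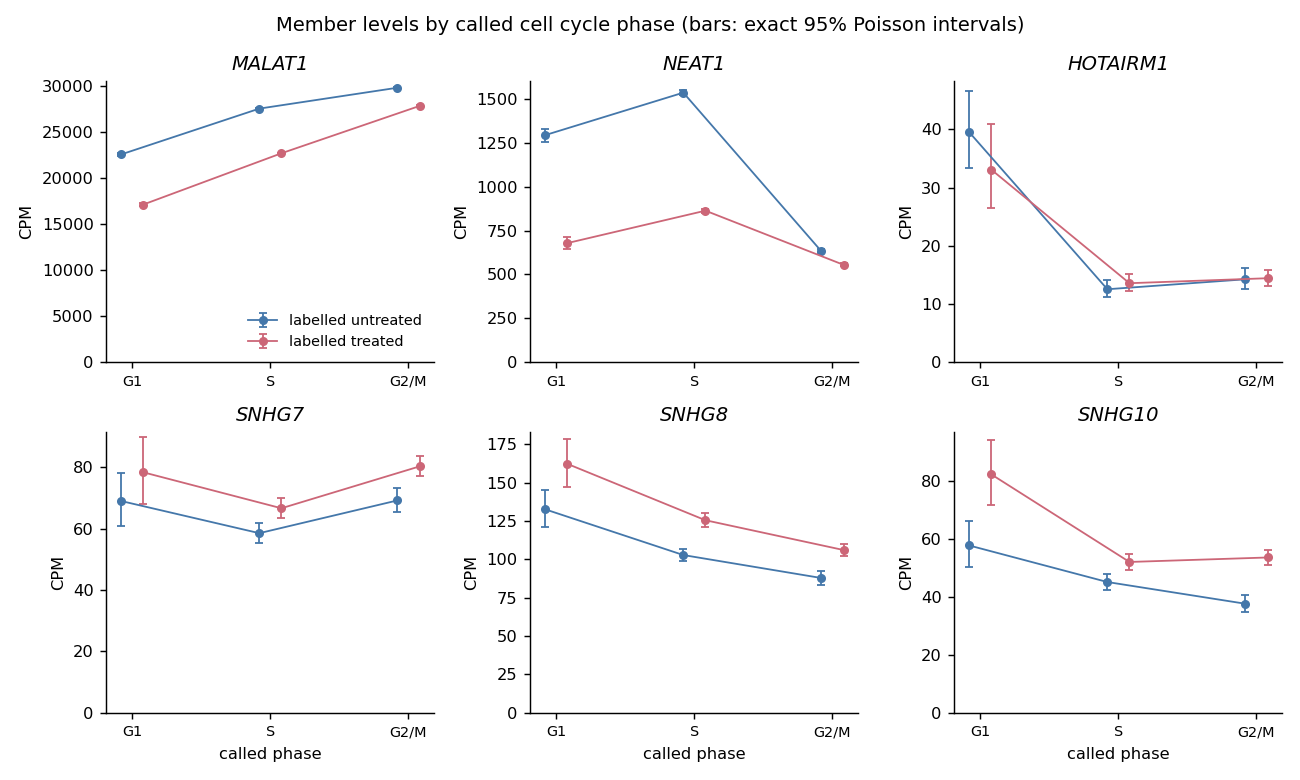
Level of each member in CPM (y axis, from 0) in cells called G1, S and G2/M (x axis), by library, with exact 95% Poisson intervals as bars. NEAT1 peaks in S in both libraries, at 1538 and 864.1 CPM, while HOTAIRM1 stands highest in G1, at 39.5 and 33.1 CPM.

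The fourth comparison used clusters found within each library from other genes, with all members left out. The clusters are called by their leading genes and were given no cell type names. In the untreated-labelled library, cluster 0 was led by CCNE1, IGLL5, SFN, PHLDA2 and PRKAG2-AS1 (1594 cells), cluster 1 by ID1, KRTAP17-1, H1F0, GADD45G and NHLH1 (895), and cluster 2 by CCNB1, CCNB2, DEPDC1, NUF2 and ARL6IP1 (521). Cluster 3 was led by the histone genes HIST1H4C, HIST1H1B, HIST1H1C, HIST1H1E and HIST2H2AC (462), cluster 4 by SOX2, HIST1H2BD, C1orf63, CREBRF and AVIL (337) and cluster 5 by PIF1, UBE2C, KPNA2, PLK1 and CENPA (308). A group of 20 cells led by CALCB, ATF5, STC1, CCNB1 and PGM5-AS1 made up cluster 6 and is left out of the ranges below.

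In the treated-labelled library, cluster 0 was led by SOX3, CAMK2B, NHLH1, RP11-304L19.5 and DLL3 (1665 cells), cluster 1 by the histone genes HIST1H4C, HIST1H1B, HIST1H1E, HIST1H1C and HIST2H2AC (1507) and cluster 2 by CCNE1, SFN, NUPR1, C1QL1 and PHLDA2 (1300). Cluster 3 was led by PIF1, CCNB1, ASPM, PLK1 and CDC20 (1200), cluster 4 by AVIL, CTA-29F11.1, SETD5-AS1, DCN and RP11-752G15.6 (554) and cluster 5 by CTNNB1, HNRNPH1, PTPRS, SPC24 and RP11-538P18.2 (453).

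MALAT1 was lowest in cluster 4 of each library, at 10303 CPM in the untreated-labelled library and 11604 CPM in the treated-labelled library. It was highest in the PIF1-led cluster 5 labelled untreated, at 34429 CPM, and in the CTNNB1-led cluster 5 labelled treated, at 35240 CPM. The highest over lowest ratio was 3.34 (3.30 to 3.38) and 3.04 (3.001 to 3.07), far above the difference between the libraries. The CTNNB1-led cluster had a median of 4484 UMIs, the lowest of the clusters labelled treated, and a median mitochondrially encoded share of 5.61%, the highest of them. The part of depth and RNA quality in its MALAT1 level was not tested. The cells with under 40 MALAT1 UMIs per 10000 labelled untreated lay in the ID1-led cluster 1 (45 cells) and in cluster 4 (31 cells), and in no other cluster of that library.

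NEAT1 varied more between clusters than between libraries. It was highest in the CCNE1-led cluster of each library, at 1698 CPM in the untreated-labelled library and 1088 CPM in the treated-labelled library. With cluster 6 left out, it was lowest in the CCNB1-led cluster labelled untreated, at 313.7 CPM. In the treated-labelled library it was lowest in the PIF1-led cluster, at 446.6 CPM. The highest over lowest ratio was 5.41 (5.18 to 5.65) and 2.44 (2.36 to 2.51). The 20 cells of cluster 6 labelled untreated had NEAT1 at 114.0 CPM (69.6 to 176.1). CCNE1 encodes cyclin E1, which acts at entry into S phase, and CCNB1 encodes cyclin B1, which acts at entry into mitosis.

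HOTAIRM1 had its highest level in cluster 4 of each library, the cluster with the least MALAT1, at 50.4 CPM in the untreated-labelled library and 43.0 CPM in the treated-labelled library. Its lowest level was in the histone-led clusters, at 5.22 and 6.66 CPM. The highest over lowest ratio was 9.66 (6.50 to 14.8) and 6.45 (5.02 to 8.32), the widest of the 6 members in each library. At a Leiden resolution of 1, HOTAIRM1 labelled untreated was highest in cluster 3 (49.9 CPM), while MALAT1 was lowest in cluster 10 (9145 CPM). In the treated-labelled library both extremes still fell in 1 cluster. Cluster 4 labelled untreated was shallow, with a median of 7178 UMIs, and the part of depth in its HOTAIRM1 level was not tested. SNHG8 ran from 78.2 to 128.1 CPM over the clusters labelled untreated and from 98.9 to 144.0 CPM over those labelled treated. SNHG7 ran from 52.7 to 82.1 CPM and from 59.6 to 106.8 CPM. With cluster 6 labelled untreated left out, both were highest in cluster 4 of each library. Of these 4 levels only that of SNHG7 in the treated-labelled library had an interval clear of the next cluster. In the 20 cells of cluster 6, SNHG7 had 176.7 CPM (120.1 to 250.8) and SNHG8 had 148.2 CPM (96.8 to 217.1).

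SNHG10 had 142.6 CPM in the AVIL-led cluster 4 labelled treated and 38.6 CPM in the histone-led cluster 1, a ratio of 3.70 (3.28 to 4.16). In the untreated-labelled library, with cluster 6 left out, it ran from 32.1 to 58.4 CPM, with 57.0 CPM in cluster 4. The 20 cells of cluster 6 had 148.2 CPM (96.8 to 217.1) on 26 UMIs. Cluster 4 labelled treated held 518 of the 3258 SNHG10 UMIs of its library.

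**Figure D4:**
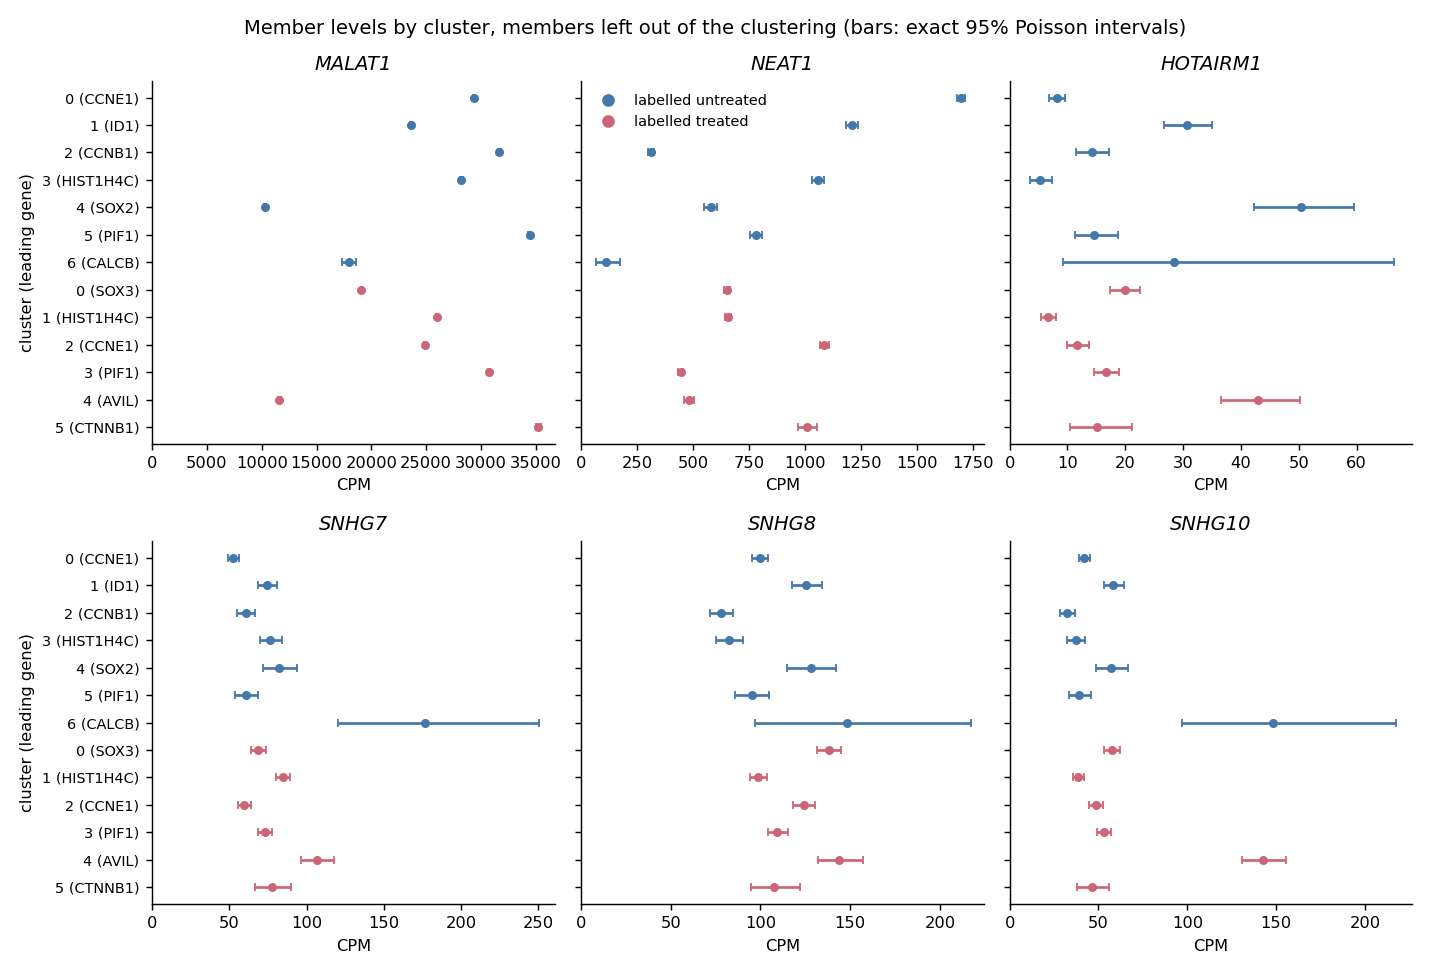
Level of each member in CPM (x axis, from 0) in each cluster (y axis, number and first leading gene), by library, with exact 95% Poisson intervals as bars. MALAT1 is lowest and HOTAIRM1 highest in cluster 4 of each library, and SNHG10 stands at 142.6 CPM in the AVIL-led cluster labelled treated.

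Clusters of the libraries were matched where each shared the most of its 50 leading genes with the other, which gave 5 pairs sharing 12 to 37 genes. NEAT1 was lower in the cluster labelled treated in 4 of the 5 pairs. The ratio was 0.641 (0.628 to 0.654) in the CCNE1-led pair (32 genes shared), 0.538 (0.522 to 0.555) in the pair of the ID1-led and SOX3-led clusters (12 shared), 0.620 (0.601 to 0.640) in the histone-led pair (36 shared) and 0.836 (0.780 to 0.895) in the pair of clusters 4 (15 shared). In the pair of the CCNB1-led cluster labelled untreated and the PIF1-led cluster labelled treated (37 shared) NEAT1 was higher in the latter, with a ratio of 1.42 (1.36 to 1.49). That PIF1-led cluster also shared 35 genes with the PIF1-led cluster labelled untreated. Against both clusters labelled untreated pooled, with 829 cells, the ratio was 0.913 (0.880 to 0.947), so the direction rests on the match.

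MALAT1 was lower in 4 of the 5 pairs, with ratios from 0.810 to 0.970, and higher in the pair of clusters 4, at 1.13 (1.11 to 1.14). SNHG8 had a ratio above 1 in all 5 pairs, from 1.10 to 1.40. In the pair of clusters 4 its interval included 1, at 1.12 (0.980 to 1.29). SNHG10 had a ratio of 2.50 (2.09 to 3.01) in the pair of clusters 4 and of 1.65 (1.42 to 1.92) in the CCNB1-led and PIF1-led pair, and lay between 0.983 and 1.16 in the other 3. HOTAIRM1 had a ratio of 1.44 (1.14 to 1.82) in the CCNE1-led pair and of 0.649 (0.538 to 0.784) in the pair of the ID1-led and SOX3-led clusters, so the near equality of the library levels covered differences in both directions. SNHG7 lay between 0.925 and 1.30. The pairs are matches of leading genes and not the same cells, and pairs with few shared genes may set different cells side by side.

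The mitochondrially encoded share, a measure of RNA quality, moved with the nuclear transcripts. In the lowest 25% of cells by this share, NEAT1 had 797.7 counts per 1000000 of the counts that are not mitochondrially encoded in the untreated-labelled library and 637.5 in the treated-labelled library. In the highest 25% it had 1644 and 892.0. MALAT1 went from 26123 to 33716 and from 24088 to 29743 on the same scale. In cells with under 5% mitochondrially encoded counts the ratio of NEAT1 between libraries was 0.718, which does not pass 1.5-fold. HOTAIRM1 went the other way in the untreated-labelled library, from 24.7 to 11.4, and from 17.3 to 14.8 in the treated-labelled library. SNHG8 stayed between 99.4 and 108.1 and between 120.8 and 126.3. The part of RNA quality in these levels was not tested.

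Across thinned cells, the members were weakly related to each other. MALAT1 and NEAT1 had a Pearson correlation of 0.30 (Spearman 0.24) over 3892 cells labelled untreated and of 0.11 (0.10) over 6012 cells labelled treated, as a description of cells that share a library. Every other pair of members lay between -0.16 and 0.04, and in counts this sparse such values are no finding. Among 4468 genes found in at least 10% of thinned cells of both libraries, those most like MALAT1 were TUBA1B, TOP2A, TUBB, NUSAP1 and UBE2C, with Pearson correlations of 0.18 to 0.32 in the untreated-labelled library and 0.29 to 0.39 in the treated-labelled library. Those least like it were HSP90AB1, FTL, BTF3, NACA and HSP90AA1, between -0.19 and -0.31 over both libraries. Of 83 ribosomal protein genes, 78 had a negative correlation with MALAT1 in both libraries and 2 a positive one, whereas of all 4468 genes 1443 were negative in both and 1701 positive. Each thinned cell holds the same total, so the levels of an abundant transcript and of other genes are not independent.

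The genes most like NEAT1 were C1QL1, CCER2, GPX4, S100A14 and FTH1, with correlations of 0.19 to 0.36 in the untreated-labelled library and 0.15 to 0.17 in the treated-labelled library. The least like were CCNB2, PTTG1, CCNB1, ARL6IP1 and CENPF, between -0.36 and -0.48 in the untreated-labelled library and between -0.19 and -0.21 in the treated-labelled library. CCNB1, CCNB2, PTTG1 and CENPF are genes of mitosis, and the low end of the NEAT1 range lay in the clusters led by such genes. Of the 12 mitochondrially encoded genes, all 12 had a positive correlation with NEAT1 in both libraries and 11 had one with MALAT1. Over all 4468 genes, 1674 were positive in both libraries with NEAT1 and 1701 with MALAT1. For the 3 hosts summed, and for HOTAIRM1, no gene outside the ribosomal and mitochondrial sets among those most or least like them passed 0.12 in size.

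Genes that act with the members were counted by list, over genes with at least 50 UMIs. Of all 13958 such genes, 526 lay higher by 1.5-fold or more and 2084 lower, at a median log2 ratio of -0.02. In either direction by any amount, 6614 of them lay above 1 and 7344 below, the background for the counts above and below 1. Of the 15 other non-coding snoRNA hosts listed, 5 were measured, 1 passed 1.5-fold on the high side and none on the low side, at a median log2 ratio of 0.13. The higher one was SNHG9, with 26.8 and 46.2 CPM and a ratio of 1.73 (1.61 to 1.85). EPB41L4A-AS1 had a ratio of 1.11 (1.02 to 1.20), SNHG15 of 1.04 (0.976 to 1.11) and ZFAS1 of 0.991 (0.970 to 1.01). Of 29 protein-coding snoRNA hosts, 1 was at least 1.5-fold higher, the ribosomal protein gene RPL17, with 155.2 and 260.5 CPM and a ratio of 1.68 (1.63 to 1.73). None was lower by that much, and the median was 0.02. RPL23A had a ratio of 1.19, RPL5 of 0.888 and RPSA of 0.879. Ribosomal protein genes have many processed pseudogenes, so their counts are uncertain.

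None of the 16 snoRNP protein genes, whose products hold snoRNAs or assemble them, passed 1.5-fold, with a median of -0.03. FBL, the methyltransferase of box C/D particles, had a ratio of 0.863 (0.846 to 0.881), ZNHIT3 of 0.893 and the assembly factor NAF1 of 1.19 (1.06 to 1.34). Of the 18 nonsense-mediated decay genes, which act on spliced host transcripts, none passed 1.5-fold, 16 lay above 1 and 2 below, and the median was 0.24. SMG1, the kinase of UPF1, had 19.5 and 27.8 CPM and a ratio of 1.43 (1.31 to 1.55). UPF2, its partner in the surveillance complex, had 27.6 and 39.2 CPM and a ratio of 1.42 (1.32 to 1.52). ETF1, a translation release factor, had a ratio of 0.833 (0.791 to 0.877).

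The 18 paraspeckle protein genes lay near 1. None passed 1.5-fold, 11 lay above 1 and 7 below, and the median was 0.03. DAZAP1 had a ratio of 1.24 (1.20 to 1.28), RBMX of 1.20 (1.17 to 1.23), SMARCA4 of 0.945 and PSPC1 of 0.889 (0.852 to 0.929). The 18 nuclear speckle genes had a median of 0.14, with none past 1.5-fold and 12 above 1. U2AF2, a splicing factor that binds the pyrimidine tract next to the 3′ splice site, had a ratio of 1.42 (1.36 to 1.49). SON, a scaffold of speckles, had one of 1.39 (1.36 to 1.42). SRSF11 and PNN had ratios of 0.963 and 0.953.

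Of 8 other nuclear long non-coding RNAs listed, 5 were measured, none passed 1.5-fold and all 5 lay above 1, with a median of 0.05. MIAT had 113.5 and 151.4 CPM and a ratio of 1.33 (1.29 to 1.38), HCG18 a ratio of 1.11, KCNQ1OT1 of 1.02 and TUG1 of 1.00 (0.942 to 1.07). NEAT1 was the lowest of the nuclear long non-coding RNAs measured here. Of the 9 measured HOXA genes, which lie around HOTAIRM1, 1 was at least 1.5-fold lower, HOXA11, with only 39 and 17 UMIs and a ratio of 0.330 (0.175 to 0.597). The median was -0.19, and -0.04 over genes with at least 500 UMIs, with HOXA2 at 0.703, HOXA9 at 1.07 and HOXA5 at 1.12 (0.928 to 1.36).

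The 8 genes listed from the region of MALAT1 and NEAT1 on chromosome 11 had 4 members past 1.5-fold on the low side and none on the high side, and a median of -0.47. With at least 500 UMIs per gene the median was -0.13. KCNK7 had 5.38 and 1.23 CPM, a ratio of 0.229 (0.174 to 0.298), and SLC25A45 had 10.7 and 4.50 CPM, a ratio of 0.421 (0.362 to 0.490). The other 2, named after their values were seen, were EHBP1L1 at 0.516 (0.393 to 0.675) and LTBP3 at 0.627 (0.555 to 0.708). These 4 were weakly expressed, at 3.03 to 12.99 CPM in the untreated-labelled library. FAM89B, at 83.8 and 97.0 CPM, had a ratio of 1.16 (1.11 to 1.21).

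**Figure D5:**
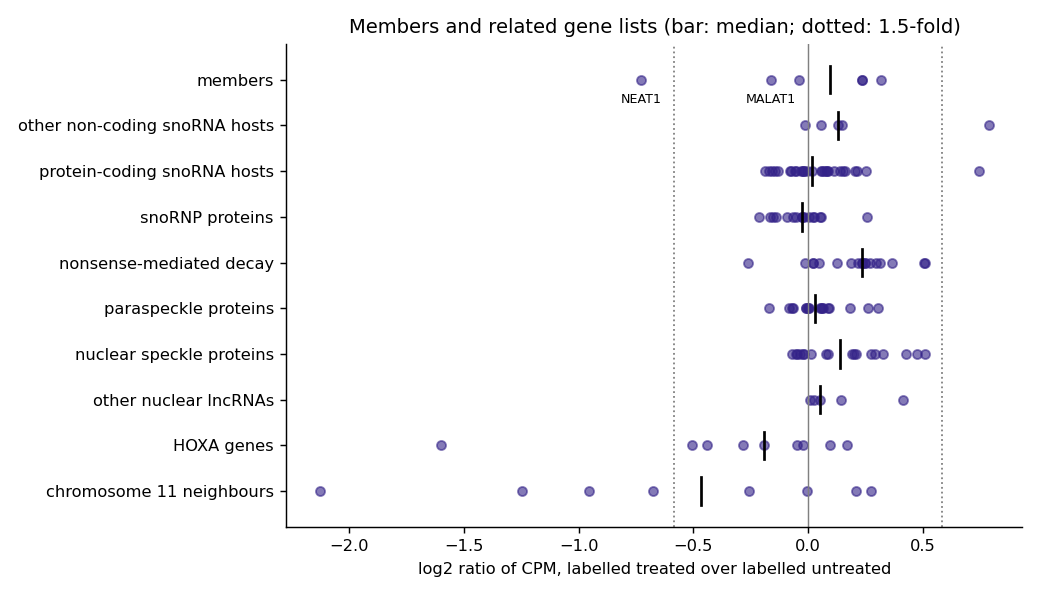
Log2 ratio of CPM, labelled treated over labelled untreated (x axis), for each measured gene (points) of the members and 9 related lists (y axis), with the median as a bar and dotted lines at 1.5-fold. NEAT1 lies beyond the dotted line on the low side among the members, at -0.73, while no paraspeckle protein gene passes either line.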

How the data were processed

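The authors deposited 1 table of 32742 genes and 10816 cells for both libraries, with values on a natural log scale. Cell Ranger, Seurat and hg19 are named without versions per the submitters' processing notes, and the annotation and filters are not given in the sources used here. Back-transformed, values summed to 10000 per cell. Taking the smallest value of a cell as 1 UMI, 100% of values were whole multiples within a relative tolerance of 1e-06, and UMIs were recovered from this. No cell filter was added and doublets were not called.

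UMIs were summed per library and given as CPM, with exact Clopper-Pearson intervals for ratios and shares and exact Poisson intervals for levels. Genes needed at least 100 UMIs over both libraries, or 50 in lists. Phases were called with scanpy on cells thinned to 4351 UMIs, both libraries together. Leiden clusters (resolution 0.5, 2000 variable genes, 20 components, 15 neighbours) were found per library without the members. Leading genes had a UMI in at least 10% of the cluster's cells and were ranked by fold with 10 CPM added. No test between conditions was made. The members and lists were chosen with earlier results of these data known. Named genes are the members, the 2 highest and 2 lowest ratios of each list, the 5 genes most and least like a member, and the top 5 of each cluster. A gene that this rule selects is not reported here. S and G2/M genes served only to call phases. HOTAIRM1 was added to the likeness after the data were seen. Alternatives changed scaling, weights, cells, thinning, phase calls, clustering and gene minimums. The ratio code was run on simulated counts that held counting error only. This run cannot speak to spread between cells or libraries. Sequences came from GENCODE 29 transcripts and RefSeq promoters (GRCh38.p14), not from the hg19 build of the counts. Python 3.11.15, scanpy 1.11.5, leidenalg 0.10.2, numpy 2.4.6, scipy 1.17.1 and pandas 2.3.3 were used.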

Additional observations from a re-analysis of the deposited data

How the results depend on the processing

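No paired analysis was possible because each group had 1 library. The ratio of NEAT1 stayed below 1 in all 15 alternatives and at least 1.5-fold lower in 13, and that of MALAT1 stayed below 1 and those of SNHG7, SNHG8 and SNHG10 above 1 in all 15. HOTAIRM1 lay between 0.790 and 1.08, below 1 in 12. The NEAT1 ratio was 0.524 in cells called G1, 0.562 in S, 0.878 in G2/M, 0.626 with the treated cells weighted to the untreated phase mix, 0.543 in cells of 7000 to 12000 UMIs, 0.593 without the 5% of cells with the most UMIs and 0.718 in cells with under 5% mitochondrially encoded counts. The number of members at least 1.5-fold lower was therefore 0 in G2/M cells and 0 in cells under 5%. The MALAT1 ratio was 0.759 in G1, 0.824 in S, 0.934 in G2/M and 0.865 with the untreated phase mix. It was 0.897 with median-ratio size factors (a shift of 0.0066 in log2), 0.900 without mitochondrial and ribosomal genes in the total, 0.890 without the members, 0.889 with equal weight per cell and 0.889 with a pseudocount of 0.1. It was 0.905 in cells of 7000 to 12000 UMIs and 0.904 under 5% mitochondrial counts. Chosen after seeing the data, weighting to the untreated depth mix gave 0.912, leaving out MALAT1-poor cells gave 0.886, and pooling untreated clusters 2 and 5 against treated cluster 3 gave 0.940 for MALAT1 and 0.913 for NEAT1.

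Thinned to 8578 UMIs, the share of cells with NEAT1 differed by -0.852 percentage points. With phases called in each library alone, MALAT1 in S over G2/M was 0.915 (untreated) and 0.805 (treated). At a Leiden resolution of 1.0 the highest over lowest cluster ratio was 3.77 and 3.38 for MALAT1 and 7.37 and 2.95 for NEAT1. With a minimum of 1 UMI in each library, 4411 genes were at least 1.5-fold lower and 1604 higher, 2885 at least 2-fold lower and 622 higher. With at least 500 UMIs these were 619, 231, 223 and 22. With that minimum 2 list entries were at least 1.5-fold lower. The cause of each change was not tested. Depth limits HOTAIRM1 most, which had 706 and 906 UMIs.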
